A study of Mus musculus with 4 samples.

Results

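The genes described here were Col2a1, Col9a1, Col9a2, Col9a3, Col11a1 and Col11a2, which encode the chains of cartilage collagens II, IX and XI. They were taken by symbol, and all 6 were found among the 32286 rows of each of 4 single-cell RNA matrices. The study examined a mouse model of the spine deformity of neurofibromatosis type 1, using 10x 3′ libraries of spine cells sorted by tdTomato fluorescence. Cre from the Prss56 locus marks boundary cap cells of the neural crest and their descendants. The control mice were Prss56Cre/+;R26tdTom/tdTom;Nf1+/+ and the mutant mice were Prss56Cre/Cre;R26tdTom/tdTom;Nf1fl/fl, each at 3 months and at 12–16 months of age. Both genotypes thus carried the tdTomato reporter and at least 1 Prss56Cre allele, but the number of Cre alleles differed together with Nf1, and the effects of these cannot be told apart. Loss of Nf1 was limited to cells in which the Prss56 promoter had driven Cre. Cells stained for CD11b, CD31 or CD45 and dead cells had been discarded in the sort, and the number of mice per library was not given in the sources used here. Each condition was 1 library, so conditions are compared below by their values, without a test between them, and all intervals are 95% intervals that cover counting error only.

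Collagen II is the main fibrillar collagen of cartilage and is a homotrimer of the Col2a1 chain. Collagen XI, built from the Col11a1 and Col11a2 chains together with a further product of Col2a1, lies within the same fibrils and limits their thickness. Collagen IX, built from the Col9a1, Col9a2 and Col9a3 chains, sits on the fibril surface and links the fibril to other matrix molecules. In the spine these collagens are known from the vertebral endplates and the intervertebral disc, and transcription of several of them in chondrocytes depends on SOX9 with SOX5 and SOX6.

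On the GRCm38 assembly with GENCODE vM21 gene models, Col2a1 (ENSMUSG00000022483) lies at chr15:97975602-98004695 on the minus strand, and the other 5 genes are on the plus strand. Col9a1 (ENSMUSG00000026147) is at chr1:24177610-24252684, Col9a2 (ENSMUSG00000028626) at chr4:121039385-121055322 and Col9a3 (ENSMUSG00000027570) at chr2:180597790-180622189. Col11a1 (ENSMUSG00000027966) is at chr3:114030540-114220718 and Col11a2 (ENSMUSG00000024330) at chr17:34039437-34066685. RefSeq promoter windows on GRCm38.p6 were matched for 4 of the 6 genes and were not used for Col2a1 and Col9a3.

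The 250 bases before the RefSeq start are shown for 3 genes. Col9a1, at its upstream start, was the gene whose reads were most restricted to a part of the cartilage cells below. The 2 collagen XI genes were also read in bone cells. The Col11a2 window ends at 34039137, upstream of the GENCODE gene start at 34039437, whereas the other windows end next to theirs. None of the 3 windows overlaps an annotated exon. Capitals mark matches to TATAAA or to the GC box GGGCGG, which on the other strand reads as its reverse complement.
Col9a1 chr1:24177360-24177609, plus strand: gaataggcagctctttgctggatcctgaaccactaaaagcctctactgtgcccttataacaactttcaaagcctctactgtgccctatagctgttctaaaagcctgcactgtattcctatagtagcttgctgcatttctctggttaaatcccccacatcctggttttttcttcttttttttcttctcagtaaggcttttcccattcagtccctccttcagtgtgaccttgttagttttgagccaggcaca
Col11a1 chr3:114030290-114030539, plus strand: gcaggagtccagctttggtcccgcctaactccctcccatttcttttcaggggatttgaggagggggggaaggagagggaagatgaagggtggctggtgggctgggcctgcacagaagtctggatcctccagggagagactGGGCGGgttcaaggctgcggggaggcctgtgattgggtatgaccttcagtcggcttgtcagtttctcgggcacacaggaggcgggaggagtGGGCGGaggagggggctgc
Col11a2 chr17:34038888-34039137, plus strand: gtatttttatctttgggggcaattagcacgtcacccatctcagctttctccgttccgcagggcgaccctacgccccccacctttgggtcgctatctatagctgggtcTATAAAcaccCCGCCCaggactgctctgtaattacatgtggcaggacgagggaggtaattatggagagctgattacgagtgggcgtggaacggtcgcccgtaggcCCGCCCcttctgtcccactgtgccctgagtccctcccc
The Col9a1 window held no match to any of the 4 motifs searched on both strands, and 43.6% of its bases were G or C. The Col11a1 window held 2 GC boxes at 62.4% GC, and the Col11a2 window held 2 GC boxes and a TATAAA at 57.6% GC. The TATAAA lay 138 to 143 bases before the RefSeq start. Among 32851 RefSeq promoter windows of the same length, 32.7% held GGGCGG, 12.4% TATAAA, 25.2% the SOX motif ACAAAG or ACAATG and 14.0% the RUNX motif TGTGGT, and the median GC content was 52.4%. These matches describe the windows only, and no motif search was made outside them.

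Cells were kept with over 750 UMIs (unique molecular identifiers, 1 per captured mRNA molecule), over 500 genes and under 7% mitochondrial UMIs. In the order 3-month control, 3-month mutant, 12–16-month control, 12–16-month mutant, which is kept throughout, 717, 484, 135 and 421 cells passed, with 9429264, 7287981, 2154537 and 4398951 UMIs. No cell barcode was shared by libraries. Nf1 was read at 125 to 150 counts-per-million units (CPM) in every library and at 150 CPM in the 3-month mutant, but 3′ tags lie mostly outside the floxed part of Nf1, so this level does not check the genotype and the mutant libraries are named by their labels. The 8 dissociation stress genes held 1.64% of UMIs in the 3-month control and 0.738 to 0.964% in the others.

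Cells with at least 1 Sox9 and 3 Acan UMIs were called cartilage cells, and there were 562, 377, 89 and 258 of them. Their markers fitted the label, with Hapln1 in 98.8%, Snorc in 98.5% and the blood marker Ptprc in 0 of 1286 cells. Cartilage cells with at least 2 UMIs of Ihh, Panx3 and Prkg2 together, genes known from hypertrophic chondrocytes, numbered 37, 136, 15 and 56. They made up 6.58%, 36.1%, 16.9% and 21.7% of the cartilage cells. Col10a1, the collagen that defines hypertrophic chondrocytes, was read in 17.2% of these 244 cells against 17.8% of all cartilage cells and had 0 UMIs in those of the 12–16-month control. By summed level Col10a1 was higher in these cells but did not pass the test given below. The other 4 of 5 hypertrophic markers passed as higher, but Ihh, Panx3 and Prkg2 define the gate, which leaves Pth1r. The cells are called Ihh/Panx3/Prkg2 cells here after their rule. The remaining cartilage cells were split by Runx2, a transcription factor of osteoblasts and maturing chondrocytes, into 59, 57, 10 and 26 Runx2-positive and 466, 184, 64 and 176 Runx2-zero cells.

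Cells with at most 2 Acan and at least 1 Runx2 UMIs were called bone/stroma cells and numbered 45, 39, 27 and 83. Col1a1 was read in 68.6% and the stromal gene Cxcl12 in 60.8% of these 194 cells, but Ptprc was read in 17.0%. In the 3-month mutant, 25 of the 39 cells carried blood, mural or endothelial markers and held 81.2% of the gate's UMIs, against 7.60%, 17.3% and 17.7% in the other libraries. The main levels, ratios, tests and correlations of the whole gate are therefore given also without such cells. Bone/stroma cells with more UMIs of osteoblast and osteocyte genes than of stromal progenitor genes (32, 9, 20 and 36 cells) are called the osteoblast side, and the others the stromal side. Neither side was cleared of cells with blood, mural or endothelial markers.

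All 6 collagens were read in cartilage cells of every library, and Col2a1 stood far above the rest. UMIs are counted per molecule, but capture of each gene was not measured, and whether intronic reads were counted was not given. CPM values of different genes are therefore set side by side as counts read and not as amounts of mRNA. Over all cartilage cells, Col2a1 was at 4403 CPM (4373 to 4434), Col11a1 at 1502 (1484 to 1520), Col9a2 at 1101 (1086 to 1116), Col11a2 at 845 (832 to 858), Col9a3 at 785 (772 to 798) and Col9a1 at 334 (326 to 343). The ends of this order were the same in all libraries, while Col9a3 and Col11a2 changed places between them and Col11a2 stood above Col9a2 in the 12–16-month mutant. The ranges over the 4 libraries overlapped for neighbours in the pooled order from Col11a1 to Col9a3 and not for Col2a1 or Col9a1 with its neighbour. Col9a1 in the 3-month mutant (634 CPM) did lie above Col11a2 in the 3-month control (555 CPM).

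By library, Col2a1 was at 4096, 4712, 4215 and 4746 CPM in cartilage cells, a narrow range. Col9a1, the chain with the lowest level, was at 186, 634, 193 and 213 CPM, and the 3-month mutant stood apart. Col9a2 was at 874, 1451, 1138 and 1026 CPM and Col9a3 at 638, 930, 776 and 915 CPM. Both were highest in the 3-month mutant and lowest in the 3-month control. Col11a1 was at 1111, 2179, 1427 and 1281 CPM and Col11a2 at 555, 1151, 728 and 1109 CPM. For Col11a2 the 2 mutant libraries were close to each other and above both controls, which for Col11a1 held at 3 months only. Together the 6 genes made up 0.681%, 0.892%, 0.662% and 0.652% of all UMIs in passing cells.

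**Figure D1:**
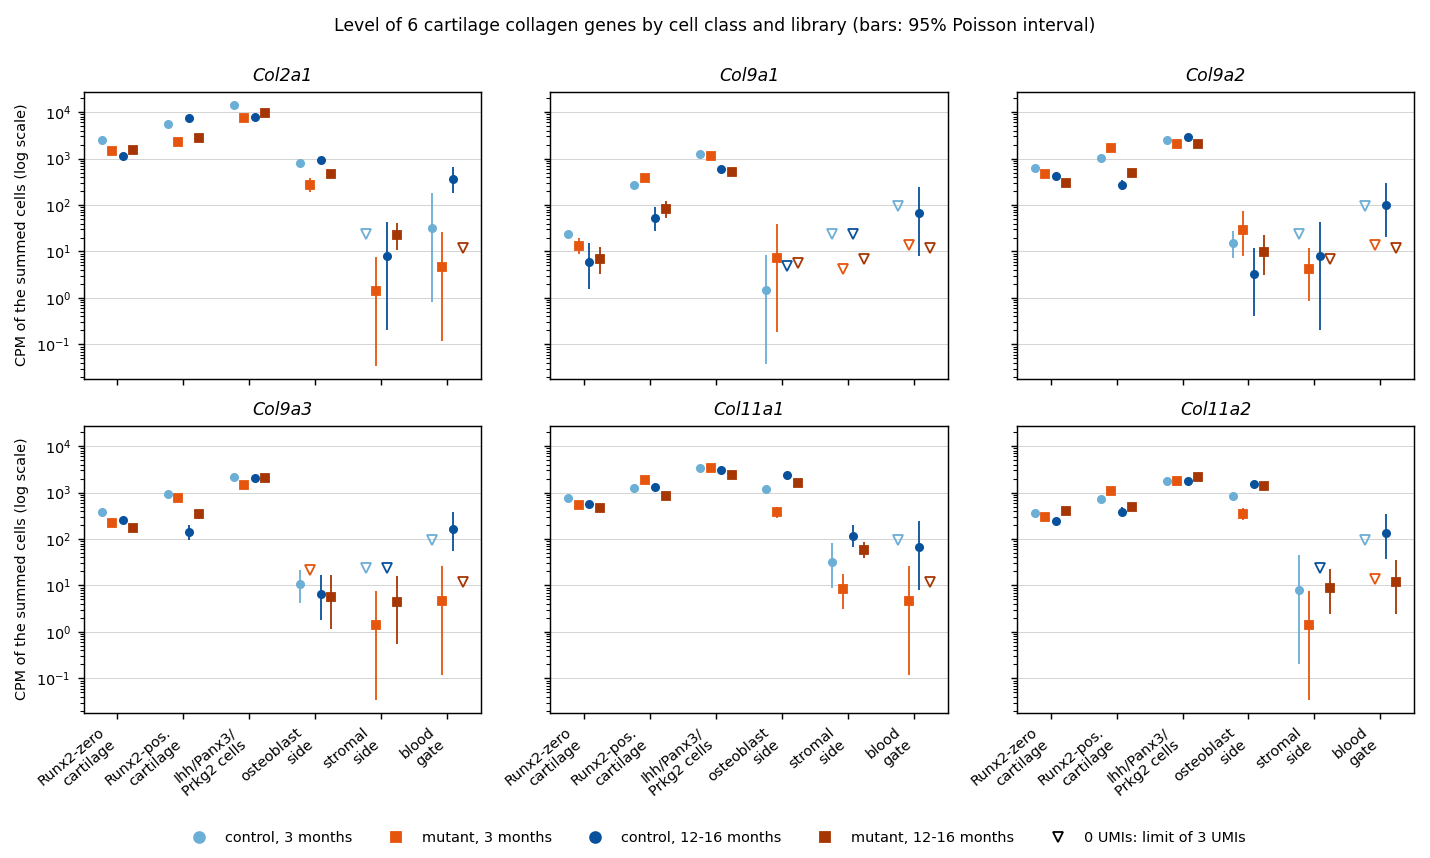
Levels of the 6 collagen genes (CPM, log axis) in each library and cell class, with exact Poisson intervals and open triangles at the limit of 3 UMIs where a sum held none. The Ihh/Panx3/Prkg2 cells sit above the other cartilage cells for each gene, while in bone cells Col11a1 and Col11a2 stay high and the collagen IX genes fall to near 0.

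The cartilage collagens divided in bone/stroma cells. The 3 collagen IX genes were close to absent there. Outside the 3-month mutant, both collagen XI genes had summed levels near those of cartilage, and Col2a1 lay between. Col9a1 had 1, 1, 0 and 0 UMIs in the bone/stroma cells of the 4 libraries, Col9a2 had 10, 7, 3 and 5, and Col9a3 had 7, 1, 4 and 5. Without cells bearing markers of other types the counts were 1, 1, 0 and 0 for Col9a1, 10, 6, 2 and 5 for Col9a2 and 7, 1, 4 and 2 for Col9a3. Col11a1 was at 984, 67.3, 1983 and 907 CPM, Col11a2 at 698, 56.9, 1287 and 765 CPM and Col2a1 at 659, 45.3, 768 and 256 CPM. The 3-month mutant was low for all 3 of these genes, and it is the library whose gate mostly held other cell types. Without the cells bearing blood, mural or endothelial markers its values were 333, 296 and 234 CPM, still the lowest of the 4 libraries.

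The UMIs came from the osteoblast side of the gate. It held 95.97% to 100% of the gate's Col2a1 UMIs, 89.7% to 99.5% of its Col11a1 UMIs and 98.0% to 100% of its Col11a2 UMIs. On the osteoblast side Col11a1 reached 1165, 373, 2373 and 1628 CPM and Col11a2 829, 344, 1556 and 1407 CPM. On the stromal side Col11a1 was at 31.7, 8.30, 119 and 58.4 CPM, far below the osteoblast side of the same library in each case, and Col11a2 had 1, 1, 0 and 4 UMIs. In the 3-month mutant the stromal side held 722509 UMIs and the osteoblast side 139443. Cells with markers of other types held 699896 UMIs of that gate, so most UMIs of its stromal side came from such cells. Few cells carried these counts. Without thinning, Col11a2 was read in 24.4%, 5.13%, 44.4% and 19.3% of bone/stroma cells, against 89.0%, 89.7%, 74.2% and 80.2% of cartilage cells. A single cell held 48 of the 49 Col11a2 UMIs of the 3-month mutant gate, and in the 12–16-month control the highest cell held 56.2% of the Col11a1 and 64.5% of the Col2a1 UMIs. Because of bone cells, cartilage cells supplied only 55.3% of all Col11a1 UMIs and 49.9% of all Col11a2 UMIs in the 12–16-month control, against at least 96.9% of the UMIs of each collagen IX gene in every library.

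The class contrast was tested within libraries, with edgeR's quasi-likelihood test on UMIs summed per library and class, with library as a block and Benjamini-Hochberg adjustment over 9798 genes. Of these genes 13.4% passed an adjusted p of 0.05 as higher and 11% as lower in cartilage, and 4 of the 6 collagens passed as higher. Col9a1 was higher by 9.04 on the log2 scale (SE 0.52, adjusted p = 0.000145), Col9a2 by 7.35 (SE 0.44, adjusted p = 0.000153) and Col9a3 by 7.43 (SE 0.54, adjusted p = 0.000214). The fitted value of Col9a1 rests on a bone/stroma sum of 2 UMIs and is no bound. In the libraries with 0 Col9a1 UMIs in bone/stroma cells the cartilage level was at least 46.8-fold and at least 68.8-fold higher, against a limit of 3 UMIs per library, and at least 38.7-fold and at least 56.7-fold higher without cells of other types. Col2a1 was higher by 3.96 (SE 0.83, adjusted p = 0.0136), with 6.22, 104, 5.49 and 18.5 times the bone/stroma level within the libraries. Without cells of other types these ratios were 5.75, 20.1, 4.56 and 15.4, so that the 3-month mutant stood much nearer to the 12–16-month mutant. The call of Col2a1 was lost without the 12–16-month mutant (adjusted p = 0.0729).

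The collagen XI genes did not pass. The log2 difference was 1.04 for Col11a1 (SE 0.93, adjusted p = 0.470) and 0.75 for Col11a2 (SE 0.89, adjusted p = 0.591). Within libraries the cartilage level was 1.13 (1.05 to 1.22), 32.4 (25.0 to 42.7), 0.720 (0.671 to 0.771) and 1.41 (1.31 to 1.52) times the bone/stroma level for Col11a1. The corresponding ratios were 0.795 (0.728 to 0.870), 20.2 (15.3 to 27.4), 0.566 (0.516 to 0.620) and 1.45 (1.34 to 1.57) for Col11a2. Without cells of other types the ratios were 1.04 (0.970 to 1.12), 6.54 (5.01 to 8.71), 0.596 (0.556 to 0.639) and 1.17 (1.08 to 1.26) for Col11a1 and 0.735 (0.673 to 0.804), 3.89 (2.93 to 5.28), 0.469 (0.428 to 0.514) and 1.20 (1.11 to 1.30) for Col11a2. In the 12–16-month control 1 cell held 812 of the 1446 Col11a1 UMIs of the bone/stroma cells. The Col11a1 ratios of 0.720 and 0.596 were not computed without it, so their direction may rest on this cell. In both versions the 3-month mutant was the highest library, and without this library the fitted difference of Col11a2 was −0.14. Without cells of other types 4 of the 6 genes again passed, and the fitted differences were 3.26 for Col2a1, 8.01, 6.67 and 7.02 for Col9a1, Col9a2 and Col9a3, 0.51 for Col11a1 and 0.16 for Col11a2. Against the osteoblast side alone they were 3.00, 7.74, 6.56, 6.79, 0.25 and −0.12.

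The balance of the genes within a class differed accordingly. In cartilage cells 4.69, 3.25, 3.70 and 4.63 Col2a1 UMIs were read per Col9a2 UMI, and on the osteoblast side 52.0 (28.0 to 109), 9.50 (3.42 to 36.6), 280 (77.0 to 2314) and 47.6 (20.1 to 148), the last but 1 over 2 Col9a2 UMIs. Per Col11a1 UMI, 3.69, 2.16, 2.95 and 3.70 Col2a1 UMIs were read in cartilage cells and 0.673, 0.731, 0.391 and 0.279 on the osteoblast side. These ratios differed between the classes in all 4 libraries. In blood cells (16, 23, 5 and 29 cells) Col2a1 had 1, 1, 11 and 0 UMIs, and the 5 blood cells of the 12–16-month control, with a median of 1224 UMIs, thus stood at 366 CPM. The part of free RNA in the counts of any class was not tested.

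**Figure D2:**
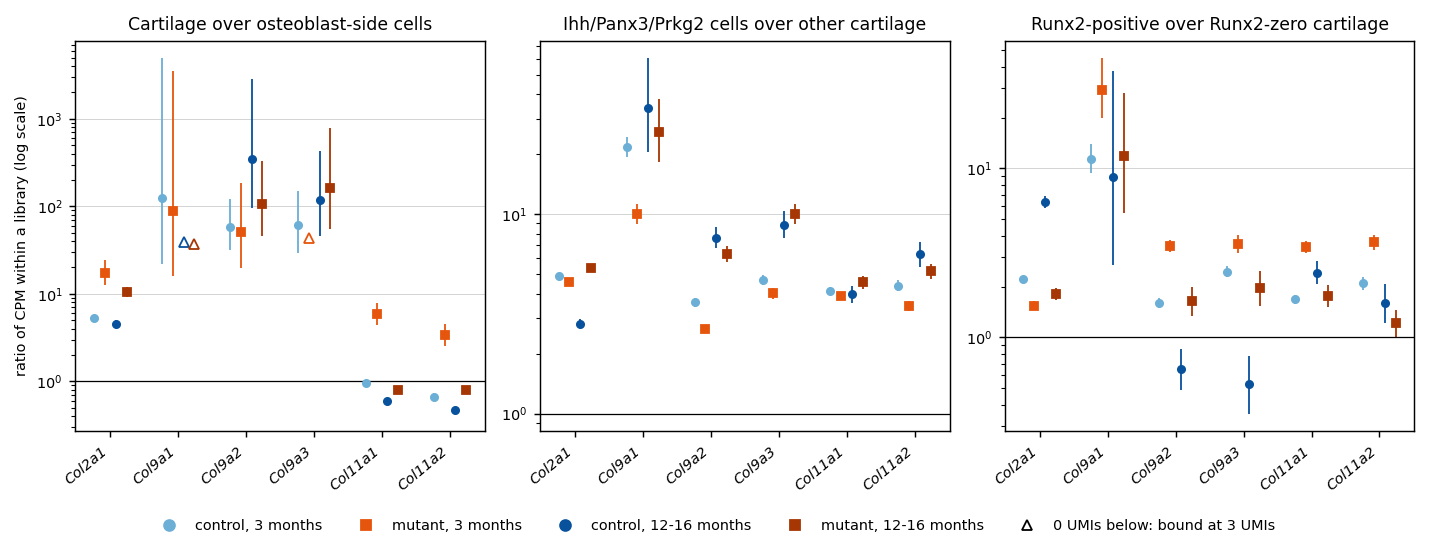
Ratios of levels within each library (log axis) for cartilage over osteoblast-side cells, Ihh/Panx3/Prkg2 over other cartilage cells and Runx2-positive over Runx2-zero cells, with exact intervals and open triangles for lower limits. Collagen IX ratios to the osteoblast side lie far above 1 and collagen XI ratios between 0.468 and 0.953 in 3 libraries, with the 3-month mutant at 5.84 for Col11a1 and 3.34 for Col11a2. The Col11a1 ratio of the 12–16-month control includes 1 bone cell with 812 UMIs of this gene. All 6 genes lie above 1 in the Ihh/Panx3/Prkg2 cells of every library.

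Related genes were placed in the same contrast, from lists chosen with earlier results known, beside a median log2 difference of −0.00 over all genes. Of 14 other cartilage matrix genes tested, 13 were higher in cartilage cells and 0 lower, with a median of 7.76 (Epyc, a small leucine-rich proteoglycan, 10.63, while Bgn at 0.21 did not pass), and Acan in this list is a gene of the gate itself. Of the 5 SOX factors and partners tested 4 were higher, Sox6 by 4.43 and Sox5 by 4.28, and Arid5b, a chromatin partner of SOX9, was lower by 1.71, and Sox9 defined the gate. Other collagens went both ways, with 5 of 16 higher (Col10a1 7.77, Col27a1 5.21) and 7 lower (Col1a1 −10.27, Col22a1 −7.09).

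Genes that act on collagen after its synthesis went both ways as well. Of 26 genes of collagen folding, export and processing 8 were higher and 6 lower in cartilage cells, with a median of 0.45. The prolyl hydroxylases P4ha2 and P3h2 were higher by 2.86 and 2.22, and Adamts2, which removes the N-propeptide of fibrillar collagens, and the lysyl oxidase Loxl1 were lower, at −6.72 and −5.10. Of 6 collagen receptors tested Ddr1, a receptor tyrosine kinase, was higher by 1.43 and 3 were lower, among them the integrin chains Itga11 (−4.11) and Itga1 (−2.33). Of 8 matrix turnover genes the protease inhibitors Timp3 (2.93) and Timp2 (1.28) were higher and 4 were lower, with the collagenase Mmp13 at −6.83. All 8 of the dissociation stress genes were also higher in cartilage cells, and their part in the collagen differences was not tested.

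Within cartilage, the 6 collagens were all highest in the Ihh/Panx3/Prkg2 cells, and the step was steepest for Col9a1. In these cells Col2a1 was at 14152, 7614, 7675 and 9351 CPM, against 2897, 1673, 2713 and 1735 in the other cartilage cells. Col9a1 was at 1262, 1132, 596 and 509 CPM against 58.1, 113, 17.5 and 19.6. The values of the 2 classes did not overlap for either gene. Col9a2 was at 2473, 2085, 2889 and 2087 CPM against 683, 787, 378 and 332, and Col9a3 at 2144, 1468, 2033 and 2008 CPM against 458, 367, 230 and 201. Col11a1 was at 3438, 3423, 2983 and 2426 CPM against 833, 876, 752 and 533, and Col11a2 at 1791, 1765, 1760 and 2165 CPM against 408, 509, 280 and 419. For these 4 genes too each of the 4 gate sums lay above each of the other sums.

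In the test within libraries over 10011 genes, 14.9% of genes passed as higher and 17.2% as lower in the Ihh/Panx3/Prkg2 cells, and 6 of the 6 collagens passed as higher. The log2 differences were 4.18 for Col9a1 (SE 0.28, adjusted p = 2.03e-05) and between 1.92 and 2.53 for the other 5. These were 1.97 for Col2a1 (SE 0.20, adjusted p = 0.000147), 2.08 for Col9a2 (SE 0.25, adjusted p = 0.000385), 2.53 for Col9a3 (SE 0.24, adjusted p = 0.000105), 1.92 for Col11a1 (SE 0.15, adjusted p = 4.24e-05) and 2.10 for Col11a2 (SE 0.17, adjusted p = 6.05e-05). Within libraries the ratio of Col9a1 was 21.7 (19.4 to 24.3), 10.0 (8.93 to 11.3), 34.0 (20.5 to 60.4) and 25.9 (18.3 to 37.8), and the ratios of the other genes were 2.65 to 9.99. The gate cells were also deeper, with median totals of 21806, 20298.5, 27015 and 19801.5 UMIs. With every cell thinned to 2000 UMIs before gating all 6 still passed, at 1.31 to 2.11.

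Set against the Runx2-positive cells only, a comparison added after the data were seen, the differences were smaller, at 2.34 for Col9a1 and 1.21 to 2.02 for Col9a2, Col9a3, Col11a1 and Col11a2, and Col2a1 at 1.20 did not pass (adjusted p = 0.0605). Within libraries the Col2a1 ratio was 2.57, 3.37, 1.05 and 3.37. In the 12–16-month control 1 of the 10 Runx2-positive cells held 1464 of their 1685 Col2a1 UMIs. Without it these cells stood at 1401 CPM in place of 7335, and this test was not run without it. At the edge of the gate, the 25 cartilage cells with exactly 2 UMIs of the gate genes were at 917 CPM for Col9a1 and 6270 for Col2a1, the 42 cells with 1 such UMI at 365 and 6023, and the 1000 cells with none at 46.1 and 2266. At the Acan edge, 15 Sox9-positive cells with 3 Acan UMIs were at 1130 CPM and 17 with 2 at 619 CPM for Col2a1. For Col9a1 these edge cells held 1 UMI each side.

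Among related genes in this contrast the median difference of all genes was −0.03. Sox6 (1.49) and Sox5 (1.01) were higher and Arid5b (−4.08) lower, with 3 of 5 SOX factors and partners higher and 1 lower. Of 14 cartilage matrix genes 5 were higher, among them Matn3, which encodes a matrilin that binds collagen IX, at 4.55 and Epyc at 2.81, and 2 were lower, Dcn at −6.06 and Prelp at −0.88. Of 13 other collagens Col24a1 (3.01), Col12a1 (2.74) and Col27a1 (1.61) were higher and 6 were lower, with Col3a1 at −6.87 and Col5a2 at −4.61. Of 23 folding, export and processing genes 7 were higher, with the procollagen C-proteinase Bmp1 at 2.00, and 8 lower, with its enhancer Pcolce at −4.24 and P3h2 at −3.95. Of the dissociation stress genes 1 of 8 was higher and 5 were lower. Of 7 osteoblast and osteocyte markers tested 6 were higher in the gate cells, Bglap and Phex the most at 4.94 and 4.52, and Col1a1 was lower at −2.71, whereas Col10a1 at 3.14 (SE 1.05, adjusted p = 0.051) did not pass.

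Outside the Ihh/Panx3/Prkg2 cells, Col9a1 was also the collagen that differed most with Runx2. It was at 275, 390, 52.2 and 82.4 CPM in Runx2-positive cells and at 24.1, 13.3, 5.86 and 6.95 CPM in Runx2-zero cells, so that each positive sum lay above each zero sum. Col2a1 was at 5509, 2259, 7335 and 2773 CPM in Runx2-positive and 2488, 1462, 1158 and 1525 CPM in Runx2-zero cells, and the values overlapped. Of the 1685 Col2a1 UMIs of the 10 Runx2-positive cells of the 12–16-month control, 1 cell held 1464, and the other 9 cells stood at 1401 CPM. The same cell held 61.0% of the Col11a1 and 52.8% of the Col11a2 UMIs of this sum and none of its Col9a2 and Col9a3 UMIs. Several values that rest on the sum are therefore given also without it, a choice made after the data were seen. The correlations, the medians over the 6 genes and the test of Ihh/Panx3/Prkg2 against Runx2-positive cells include this cell. Among 8397 genes tested 0.476% passed as higher and 0.0357% as lower, and Col9a1 was the 1 gene of the 6 called, higher by 3.83 on the log2 scale (SE 0.29, adjusted p = 0.00154). The differences of the others were 1.25 for Col2a1 (adjusted p = 0.168), 0.62 for Col9a2 (0.407), 0.83 for Col9a3 (0.338), 1.10 for Col11a1 (0.0615) and 0.93 for Col11a2 (0.162). Without the cell named above Col9a1 (3.81, adjusted p = 0.000813) was again the 1 gene called and Col2a1 was at 0.67 (0.125). Of 12 other collagens tested Col12a1, a collagen associated with fibrils, was higher by 2.67 (adjusted p = 0.00992). Other settings called 1 to 6 of the genes. Col9a2 and Col9a3 were lower in the 10 Runx2-positive cells of the 12–16-month control, at ratios of 0.651 (0.486 to 0.859) and 0.534 (0.355 to 0.781), and higher in those of the other 3 libraries. Without that cell the ratios of the 12–16-month control were 0.948 (0.708 to 1.25) and 0.778 (0.516 to 1.14), with intervals that included 1.

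The distribution over single cells showed the same contrast between Col9a1 and its partners. In cartilage cells the 10% of cells with most Col9a1 UMIs held 91.8%, 58.9%, 83.7% and 81.1% of them, and 73.5%, 49.3%, 75.3% and 74.8% of cells had none. For Col9a2 the top 10% held 43.6%, 40.9%, 60.8% and 58.2%, and for Col11a1 49.0%, 45.5%, 57.8% and 54.4%. The step was smaller against Col9a3, at 54.5%, 50.5%, 67.1% and 67.6%, and against Col2a1, at 59.2%, 52.6%, 73.8% and 57.6%. Col9a1 also had the lowest level of the genes, and both measures can rise as a level falls. The part of level in these gaps was not tested. Thinned to 2000 UMIs per cell, Col9a1 was read in 10.4%, 34.8%, 10.6% and 11.5% of cartilage cells and in 80.6%, 72.8%, 46.7% and 46.4% of the Ihh/Panx3/Prkg2 cells.

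**Figure D3:**
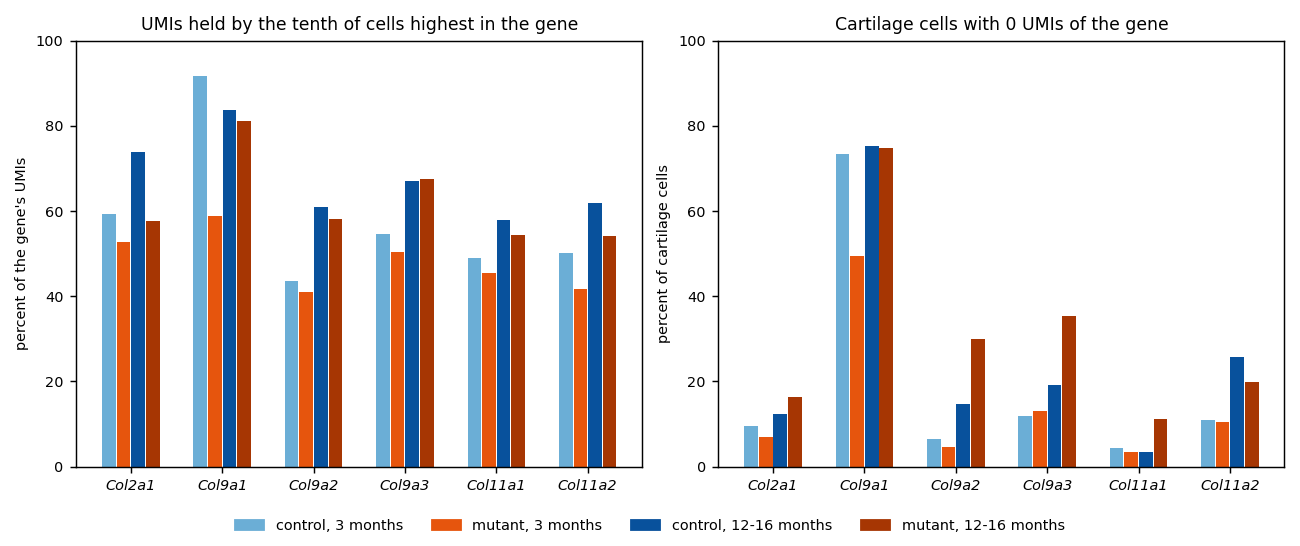
Share of each gene's UMIs held by the 10% of cartilage cells with most of them, and percent of cartilage cells with 0 UMIs, for each library. Col9a1 stands highest on both measures in every library, with the 3-month mutant lowest of the 4 for this gene. It also has the lowest level, on which both measures depend.

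The share of each chain within its collagen was compared between classes and libraries. Col9a1 supplied 2.32%, 1.89%, 0.860% and 1.45% of the collagen IX UMIs in Runx2-zero cells, 12.4%, 13.8%, 11.3% and 9.02% in Runx2-positive cells and 21.5%, 24.2%, 10.8% and 11.1% in Ihh/Panx3/Prkg2 cells. The 11.3% was 6.93% (2.83 to 13.8) without the cell named above. The share thus was lowest in Runx2-zero cells in all 4 libraries, and within the Ihh/Panx3/Prkg2 cells both 3-month libraries lay above both 12–16-month libraries. The Col9a1 gene has 2 starts, which give a long and a short chain, and 3′ counting cannot tell them apart. Col11a2 supplied 33.3%, 34.6%, 33.8% and 46.4% of the collagen XI UMIs in all cartilage cells, 31.8%, 35.9%, 30.5% and 46.2% in Runx2-zero cells and 34.2%, 34.0%, 37.1% and 47.2% in Ihh/Panx3/Prkg2 cells. The 12–16-month mutant was the highest library in all 3 sums. In the Runx2-positive cells (36.7%, 37.4%, 22.4% and 37.0%) and on the osteoblast side (41.6%, 48.0%, 39.6% and 46.4%) it was not. There the 3-month mutant was highest, but its intervals overlapped those of the 12–16-month mutant. They were 35.4 to 39.4 and 32.2 to 42.1 in Runx2-positive cells and 37.9 to 58.2 and 43.9 to 48.8 on the osteoblast side. The 48.0% was 48 of 100 UMIs, and 1 of 9 cells held all 48. The 22.4% was 25.9% (19.4 to 33.4) without the Runx2-positive cell named above.

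**Figure D4:**
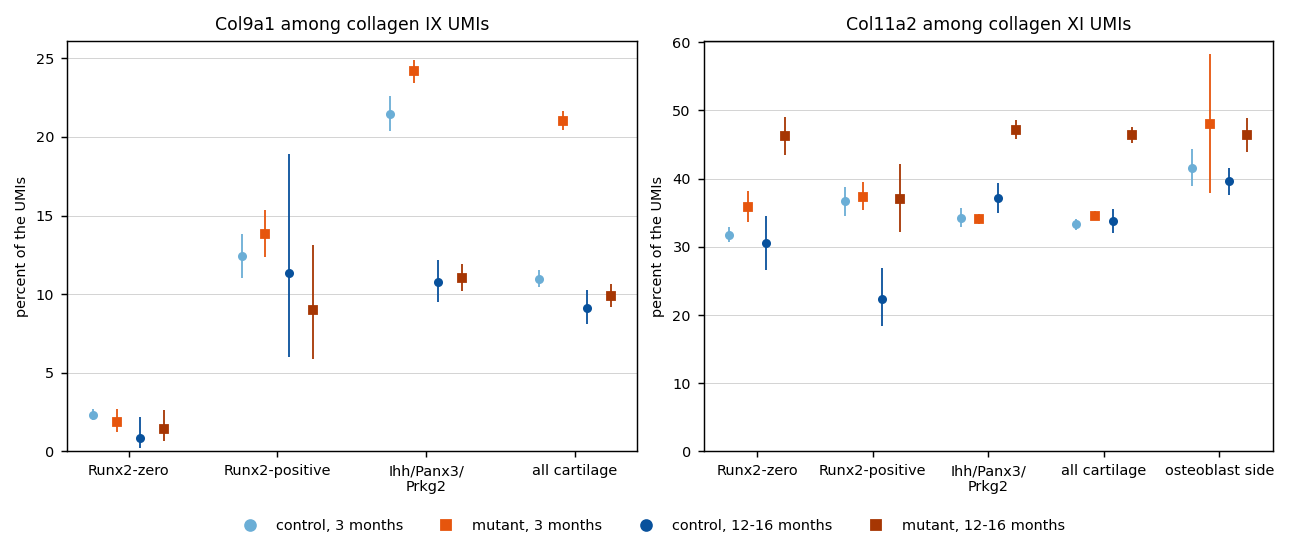
Percent of collagen IX UMIs from Col9a1 and percent of collagen XI UMIs from Col11a2, by cell class and library, with exact binomial intervals. Col9a1 shares rise from Runx2-zero to Ihh/Panx3/Prkg2 cells, and the Col11a2 share of the 12–16-month mutant lies near 46% in cartilage cells against 33.3% to 34.6% in the other libraries.

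Mutant and control cartilage cells of 3 months were compared in summed UMIs and then within classes, since the classes had different shares. Summed over all cartilage cells, the mutant to control ratio was 1.15 (1.13 to 1.17) for Col2a1, 3.40 (3.21 to 3.61) for Col9a1, 1.66 (1.61 to 1.71) for Col9a2, 1.46 (1.40 to 1.51) for Col9a3, 1.96 (1.91 to 2.01) for Col11a1 and 2.07 (2.00 to 2.15) for Col11a2. All 6 intervals lay above 1, and 4 of the 6 genes were higher by 1.5-fold or more, against 22.8% of 13273 genes. Within the Runx2-zero cells all 6 ratios were below 1, at 0.587 (0.565 to 0.611), 0.553 (0.356 to 0.831), 0.753 (0.702 to 0.808), 0.568 (0.513 to 0.628), 0.698 (0.654 to 0.745) and 0.839 (0.767 to 0.918) in the same order, and 3 of the 6 were lower by 1.5-fold or more, against 13% of 11772 genes.

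Within the Ihh/Panx3/Prkg2 cells of 3 months, Col2a1 was at 0.538 (0.526 to 0.550) and Col9a3 at 0.685 (0.649 to 0.723) of the control level, and Col11a1 at 0.996 (0.956 to 1.04) and Col11a2 at 0.986 (0.931 to 1.04) had intervals that included 1. The count of 1 gene lower by 1.5-fold or more stands against 16% of 10506 genes. Within the Runx2-positive cells Col2a1 was at 0.410 (0.388 to 0.433), while Col9a1, Col9a2, Col11a1 and Col11a2 were at 1.42 to 1.64. No gene had a ratio above 1 in the Ihh/Panx3/Prkg2 or the Runx2-zero cells, although all did in the sum. The Ihh/Panx3/Prkg2 cells, with the highest levels, made up 36.1% of mutant and 6.58% of control cartilage cells. With the 3 classes given equal weight, a calculation added after the data were seen, the median ratio of the 6 genes was 1.00. Of the 6 genes 3 lay above 1 and 3 below, so the median does not place each gene at 1. The gate shares rest on 1 library each. The stress genes, at 1.78% of the control and 1.11% of the mutant cartilage UMIs, moved with the same contrast, and their part was not tested.

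At 12–16 months the ratios in cartilage cells were nearer to 1, at 1.13 (1.09 to 1.16) for Col2a1, 1.11 (0.954 to 1.29) for Col9a1, 0.901 (0.847 to 0.960) for Col9a2, 1.18 (1.10 to 1.27) for Col9a3 and 0.898 (0.849 to 0.949) for Col11a1. Col11a2 at 1.52 (1.42 to 1.64) was the 1 gene past 1.5-fold, against 10.1% of 11031 genes. Its ratio was above 1 in each cartilage class, at 1.66 (1.40 to 1.99) in Runx2-zero, 1.27 (0.966 to 1.67) in Runx2-positive and 1.23 (1.13 to 1.34) in Ihh/Panx3/Prkg2 cells. Col9a2 was below 1 in Runx2-zero cells (0.724, 0.621 to 0.844) and Ihh/Panx3/Prkg2 cells (0.723, 0.673 to 0.776) and above 1 in Runx2-positive cells (1.82, 1.34 to 2.49), which numbered 10 in the control. Without the control cell that held most Col2a1 UMIs this ratio was 1.25 (0.921 to 1.71), that of Col11a2 1.84 (1.30 to 2.67) and that of Col2a1 1.98 (1.70 to 2.31) in place of 0.378, so the direction of Col2a1 rested on 1 cell. On the osteoblast side the mutant sums were lower at both ages, for Col2a1 at 0.348 (0.243 to 0.484) and 0.490 (0.419 to 0.571), for Col11a1 at 0.320 (0.237 to 0.424) and 0.686 (0.630 to 0.747) and for Col11a2 at 0.415 (0.302 to 0.558) and 0.904 (0.820 to 0.997), over 9 to 36 cells a library and with the single cells named above. In the bone/stroma cells of the 12–16-month control the highest cell held 361 of 560 Col2a1 and 812 of 1446 Col11a1 UMIs. These ratios were not computed without that cell, so the direction of Col2a1 and Col11a1 at 12–16 months may rest on it.

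**Figure D5:**
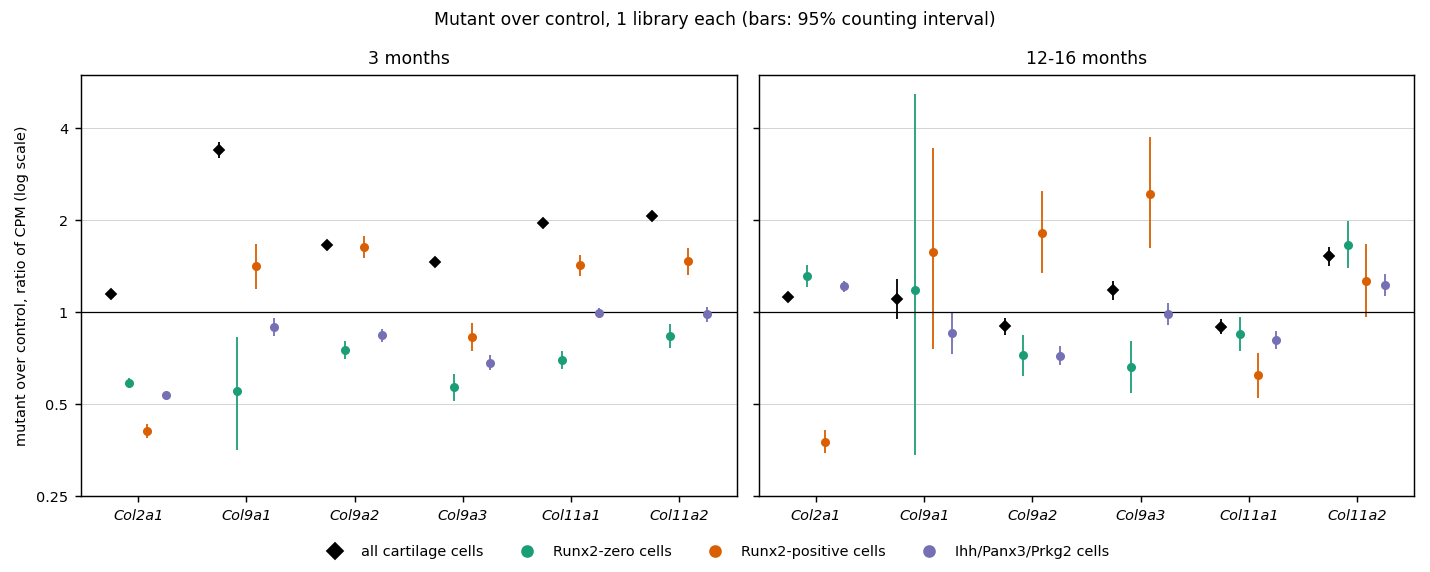
Ratio of mutant to control level (log axis) for each collagen gene at 3 and at 12–16 months, by cell class, with exact intervals and a line at 1. At 3 months the sums over all cartilage cells lie above 1 and the Runx2-zero sums below 1, and at 12–16 months Col11a2 alone passes 1.5-fold in the sum.

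The age comparisons share their libraries with the genotype comparisons and are values of the same 4 libraries. In control cartilage cells the ratio of 12–16 to 3 months was 1.03 (1.00 to 1.06) for Col2a1 and 1.03 (0.901 to 1.18) for Col9a1 and between 1.22 and 1.31 for the other 4. None was past 1.5-fold in either direction, against 19.2% of 12424 genes higher and 10.1% lower. In mutant cartilage cells it was 0.336 (0.308 to 0.366) for Col9a1, 0.588 (0.567 to 0.610) for Col11a1 and 0.707 (0.678 to 0.737) for Col9a2, with Col2a1 at 1.01 (0.987 to 1.03). Within the Ihh/Panx3/Prkg2 cells Col9a1 was lower at 12–16 months in both genotypes, at 0.472 (0.409 to 0.544) in controls and 0.450 (0.411 to 0.491) in mutants, while Col2a1 was at 0.542 (0.521 to 0.564) in controls and 1.23 (1.20 to 1.26) in mutants. In Runx2-zero control cells all 6 genes were lower at 12–16 months, at 0.243 (0.0654 to 0.635) for Col9a1, over 4 UMIs at the older age, and at 0.465 to 0.726 for the others. Of the 6 genes 3 were lower by 1.5-fold or more, against 12.6% of 11494 genes, and the median log2 ratio of all genes was 0.11.

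The genes whose levels followed each collagen most closely were taken from Pearson's r of log2(CPM + 1) over 16 sums, of the Ihh/Panx3/Prkg2, Runx2-positive, Runx2-zero and bone/stroma cells of each library, with 9516 genes ranked. The sums share libraries, so the values describe these data only. Col9a2 and Col9a3 were nearly parallel to each other (r = 0.985), as were Col11a1 and Col11a2 (r = 0.955), whereas Col9a2 and Col11a2 were at 0.414. With bone/stroma sums without cells of other types these values were 0.977, 0.921 and 0.193. With the 6 genes and the gate genes left out of the ranking, the nearest genes were Xylt1, a xylosyltransferase that starts glycosaminoglycan chains, for Col9a2 (0.990), Chadl, a leucine-rich collagen-associated protein, for Col9a3 (0.986) and Capn6 for Col9a1 (0.967). Sparc, a collagen-binding protein abundant in bone, was nearest to both Col11a1 (0.954) and Col11a2 (0.932), and Cspg4 to Col2a1 (0.926). For these 6 pairs the values without cells of other types were 0.977, 0.978, 0.958, 0.896, 0.895 and 0.900. Xylt1 and Chadl were then no longer the nearest, with Col27a1 at 0.983 for Col9a2 and Ncmap at 0.989 for Col9a3. For the other collagens the named gene stayed highest among those compared.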

How the data were processed

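The authors deposited 1 filtered 10x matrix of raw UMI counts per library, made per the file headers with Cell Ranger 8.0.0. The genome was mm10 with tdTomato added, and whether intronic reads were counted was not given in the sources used here. Cells were filtered and gated as stated with the results, in Python 3.11.15. Scrublet (scanpy 1.11.5) marked 2 to 9 cells per library, which were kept. CPM are UMIs of a class over all UMIs of that class, with exact Poisson intervals, ratios have exact conditional binomial intervals, and shares of cells have Clopper-Pearson intervals. Summed counts of classes with at least 3 cells were tested across the 4 libraries with edgeR 4.0.16 (TMM factors, filterByExpr, glmQLFTest), with library as the block, as the 2 classes compared come from the same library. DESeq2 1.42.0 was an alternative. The scripts were tested on simulated data. With 1 library per condition no genotype or age test was made, and an additive test over both ages was not run. The 6 genes, the gates and the gene lists were chosen with earlier results of these data known. The genes named from a list are those called with the largest differences in each direction, the gate genes and those a result turns on, and the genes nearest each collagen are the highest by Pearson's r among genes other than the 6 and the gate genes.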

Additional observations from a re-analysis of the deposited data

Results flagged for a closer look

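In several sums the mutant to control ratio lay on opposite sides of 1 at the 2 ages, with counting intervals that excluded 1 at both, which is why these values are set out here. Each rests on 1 library per condition, and the difference between the ages was not tested. Over all cartilage cells the ratio of Col9a2 was 1.66 at 3 months and 0.901 at 12–16 months, and that of Col11a1 was 1.96 and 0.898. In Ihh/Panx3/Prkg2 cells Col2a1 was at 0.538 and 1.22. In Runx2-positive cells, which numbered 10 in the 12–16-month control, Col9a3 was at 0.832 and 2.44 and Col11a1 at 1.43 and 0.622. Without 1 cell of that control, which held 1464 of its 1685 Col2a1 UMIs, the older values were 1.68 and 1.10, the latter with an interval that included 1. In Runx2-zero cells Col2a1 was at 0.587 and 1.32 and Col11a2 at 0.839 and 1.66. No library lay past Dixon's 95% limit for 4 values in the 17 within-library ratios examined.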

How the results depend on the processing

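The calls of the 6 collagens held under most settings. In cartilage against bone/stroma 4 genes passed in every setting except without the 12–16-month mutant (3, with Col2a1 lost), and 3 to 4 passed without each library in turn. In Ihh/Panx3/Prkg2 against other cartilage cells 6 passed in every setting except against Runx2-positive cells (5). In Runx2-positive against Runx2-zero cells 1 passed, but 2 by DESeq2 and with library totals, 5 with no filter on low counts, 6 with gates on thinned cells and 1 to 2 without each library, the higher count without the 12–16-month control. The log2 difference of Col11a2 between cartilage and bone/stroma cells lay between −0.14 and 1.46 without each library, the lowest without the 3-month mutant, and turned to −0.26 without Ihh/Panx3/Prkg2 cells and −0.12 against the osteoblast side, where the settings with these cells, against Runx2-positive cells and at equal class weight were added after the data were seen. Both classes of a contrast came from the same libraries, which pairs them, and with no library block the same numbers of collagens passed (4, 6 and 1), Col2a1 at a log2 difference of 3.38 in cartilage against bone/stroma. Thinned cells gave 2.07 for Col2a1 and 2.91, 3.30 and 3.08 for Col9a1, Col9a2 and Col9a3 in that contrast, all smaller than in the main setting. Thinning can bring cartilage cells under the Acan limit and into the bone/stroma gate, but its part in the smaller differences was not tested. Sums of at least 10 cells gave the same counts as 3.

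Counts over all genes moved more. Without each library in turn, edgeR called 870 to 1737 genes higher and 682 to 1607 lower in cartilage than bone/stroma cells, the fewest without the 12–16-month mutant, with 872 higher without the 12–16-month control, and 1802 were lower with no filter on low counts. For Ihh/Panx3/Prkg2 cells 937 to 1420 were higher and 1214 to 1669 lower without each library, again fewest without the 12–16-month mutant, 509 and 746 with thinned gates and 247 and 454 against Runx2-positive cells. For Runx2-positive cells 6 to 185 were higher and 0 to 25 lower without each library. The count of 0 was without the 3-month control, where 277 genes were lower at an unadjusted p under 0.05, and the highest counts were without the 12–16-month control. DESeq2 called 84 higher and 20 lower, no filter 570 and 345, thinned gates 583 and 600, 17 were higher without cells marked by Scrublet, and 52 were higher and 5 lower without the 1 Runx2-positive cell of the 12–16-month control that held most Col2a1 UMIs, a setting added after the data were seen. Except for the omitted libraries and cells, the causes were not tested.

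Ratios between libraries depended on the cells summed, given here as the median over the 6 genes. At 3 months the mutant to control median was 1.80, and 1.68 with TMM factors, 1.62 with cells weighted equally, 1.58 over all passing cells, 1.42 in Runx2-positive, 0.870 in Ihh/Panx3/Prkg2 and 0.640 in Runx2-zero cells, and 1.00 with the 3 classes weighted equally. Single ratios that turned below 1 were those of all 6 genes in Runx2-zero cells (0.587, 0.553, 0.753, 0.568, 0.698 and 0.839) and in Ihh/Panx3/Prkg2 cells (0.538, 0.897, 0.843, 0.685, 0.996 and 0.986). They were also those of Col2a1 and Col9a3 in Runx2-positive cells (0.410 and 0.832) and of Col2a1, Col9a1 and Col9a3 at equal class weight (0.512, 0.983 and 0.712).

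At 12–16 months the median was 1.12, and 1.00 in Runx2-zero, 1.41 in Runx2-positive and 0.918 in Ihh/Panx3/Prkg2 cells and 0.879 at equal class weight. Col9a3 turned to 0.663 in Runx2-zero cells, 0.988 in Ihh/Panx3/Prkg2 cells and 0.971 with cells weighted equally, Col2a1 to 0.378 and Col9a2 to 1.82 in Runx2-positive cells (1.98 and 1.25 without that cell), and Col2a1 to 0.844 at equal class weight. All values at equal class weight that use the 12–16-month control include that cell and were not computed without it. The direction of the 0.844 for Col2a1 may therefore rest on that cell. For 12–16 against 3 months in controls the median was 1.25, and 1.11 with TMM factors, 1.04 with cells weighted equally, 0.885 over all passing cells, 0.668 in Runx2-zero, 0.374 in Runx2-positive and 0.907 in Ihh/Panx3/Prkg2 cells and 0.777 at equal class weight. Col9a2, Col9a3, Col11a1 and Col11a2 turned to 0.656, 0.681, 0.726 and 0.684 in Runx2-zero cells and to 0.869, 0.702, 0.889 and 0.828 at equal class weight. Col9a3, Col11a1 and Col11a2 turned to 0.948, 0.868 and 0.983 in Ihh/Panx3/Prkg2 cells, Col9a2, Col9a3 and Col11a2 to 0.268, 0.149 and 0.521 in Runx2-positive cells, and Col9a2 and Col9a3 to 0.917 and 0.853 over all passing cells. Without that cell the Runx2-positive ratios of Col9a2, Col9a3 and Col11a2 were 0.390, 0.216 and 0.358. With it, Col2a1 and Col11a1 were at 7335 and 1341 CPM at 12–16 months against 5509 and 1283 at 3 months. Without it their age ratios were 0.254 and 0.593, so their direction rested on 1 cell. In mutants the age median was 0.826, and 0.866 with thinned gates, 0.698 with cells weighted equally, 0.693 over all passing cells, 0.443 in Runx2-positive and 1.11 in Ihh/Panx3/Prkg2 cells, where Col9a2 was at 1.00. Counting error alone underlies every interval, and the 10 Runx2-positive cells of the 12–16-month control and the 9 osteoblast-side cells of the 3-month mutant limit the values that rest on them.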
